A study of Mus musculus with 4 samples.

Results

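The insulin-like growth factor (IGF) system genes examined here were a ligand (Igf1), its receptors (Igf1r and Igf2r) and the binding proteins Igfbp3, Igfbp4, Igfbp5, Igfbp6 and Igfbp7, chosen by name. All 8 were present among the 20063 gene symbols of the deposited count matrix. Whole lungs of C57/BL6 mice, 2 WT (ERG fl/fl) and 2 ERG CKO (CDH5-CreER(T): ERG fl/fl), had been dissociated and profiled by droplet single-cell RNA-seq, in which each captured RNA molecule is counted once as a unique molecular identifier (UMI). Every mouse, WT included, carried the floxed Erg allele and had received 5 daily injections of 0.5 mg tamoxifen, and lungs were taken 90 days later. The Cre recombinase is driven by the promoter of Cdh5, a gene of endothelial cells (ECs), so recombination was directed to ECs and any other cell in which that promoter is active. The comparison asks what loss of the transcription factor ERG from the endothelium does to these genes, in ECs and in the cells around them.

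IGF1 is a secreted growth factor that signals through the receptor tyrosine kinase IGF1R. IGF2R, also known as the cation-independent mannose 6-phosphate receptor, takes up IGF2 for degradation and sorts lysosomal enzymes without sending a growth signal. The binding proteins IGFBP3 to IGFBP6 hold IGFs with high affinity outside the cell and are released by proteases, whereas IGFBP7 binds IGFs weakly and is a matrix-associated protein of vessel walls. In the lung, macrophages and fibroblasts are the familiar sources of IGF1. Among lung capillary ECs, general capillary (gCap) ECs act as progenitors and aerocytes (aCap ECs) lie over the gas-exchange surface.

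The genes lie on 7 chromosomes in the build GRCm38.p6. Igf1 is at chr10:87858265-87937047 on the plus strand, Igf1r at chr7:67952257-68233668 (plus), Igf2r at chr17:12682406-12769706 (minus), Igfbp3 at chr11:7206086-7215498 (minus), Igfbp4 at chr11:99040005-99052655 (plus), Igfbp5 at chr1:72858065-72874865 (minus), Igfbp6 at chr15:102144186-102149512 (plus) and Igfbp7 at chr5:77349240-77408045 (minus). ERG belongs to the ETS family, whose members bind DNA around a GGAA core. The 250 bases before the RefSeq start of Igfbp7 (chr5:77408046-77408295, minus strand) and of Igfbp4 (chr11:99040994-99041243, plus strand) are printed 5′ to 3′, because these 2 binding proteins moved in opposite directions in aCap ECs. The start used for Igfbp4 is that of the RefSeq promoter table and lies inside the span of the gene. Capitals mark GGAA, or TTCC where the core is on the other strand.
Igfbp7: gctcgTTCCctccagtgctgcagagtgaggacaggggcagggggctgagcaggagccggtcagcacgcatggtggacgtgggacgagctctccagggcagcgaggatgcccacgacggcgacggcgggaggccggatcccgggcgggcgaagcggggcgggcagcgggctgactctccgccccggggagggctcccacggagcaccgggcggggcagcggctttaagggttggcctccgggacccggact
Igfbp4: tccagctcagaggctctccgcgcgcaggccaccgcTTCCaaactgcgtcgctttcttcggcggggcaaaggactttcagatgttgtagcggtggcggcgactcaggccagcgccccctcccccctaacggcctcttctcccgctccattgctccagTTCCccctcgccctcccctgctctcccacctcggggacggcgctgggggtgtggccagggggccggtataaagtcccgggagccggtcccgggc
Igfbp7 had 1 match and Igfbp4 had 2. Igf1 had 6, Igfbp5 and Igfbp6 4 each, Igf2r and Igfbp3 2 each and Igf1r 1, counting GGAA on both strands in the same window. The core occurred in 93.4% of 32851 mouse promoters of that length, with a median of 3 matches. The longer AGGAAG, which contains the core, occurred in 29.5% of promoters and once each in Igf1, Igf2r and Igfbp6. A match is a description of the letters and says nothing of binding.

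The matrix held 9363 cells, 2264 and 2150 from WT mice and 3097 and 1852 from ERG CKO mice, with 11263911 to 18646776 UMIs per library and a median of 4611 to 4899 per cell. Cells over 10% mitochondrial counts made up 5.81 to 11.8% of a library, and at most 4 cell barcodes were shared by any pair of libraries. Clustering gave 13 classes named by their markers, and the IGF genes played no part in choosing the clusters. Nearly every marker of a class was detected in each library, the exceptions being 9 of 10 dendritic cell markers in WT replicate 1 and 8 of 9 mural markers in ERG CKO replicate 2. Erg itself did not separate the groups. In ECs it stood at 86.7 and 90.6 CPM (UMIs scaled to 1000000 UMIs of the class) in the WT libraries and at 106.6 and 83.5 CPM in the ERG CKO libraries (log2 fold change 0.07, SE 0.15, adjusted p = 0.885, edgeR). A gene has a single count here, whichever of its exons the reads came from, so reads outside the deleted part are included and the count cannot check the deletion. The groups are therefore the libraries labelled WT and labelled ERG CKO throughout.

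Levels are CPM, from the summed counts of a class in a library. Each group holds 2 mice, so an exact permutation test of a single value cannot go below p = 0.333. Tests are edgeR quasi-likelihood fits over all genes of a class, with the mouse as the replicate and Benjamini-Hochberg adjusted p-values called at 0.05. A positive log2 fold change means a higher level in ERG CKO. The p-values measure the spread between these mice.

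Fibroblasts had the highest mean level for Igf1, Igfbp3, Igfbp4, Igfbp5, Igfbp6 and Igfbp7, neutrophils for Igf1r and mural cells for Igf2r, and these leading classes were the same when all cells of a class were pooled. Among immune cells, Igf1 was at high levels in macrophages, Igf1r in neutrophils and mast cells or basophils, Igf2r in NK cells and Igfbp4 in T cells. ECs held 66.4% of all Igfbp7 UMIs, 64.6% of those of Igfbp5 and 51.2% of those of Igfbp4, while making up 26.9% of the cells. Macrophages, 7.48% of the cells, held 66.1% of the Igf1 UMIs, against 13.5% in ECs and 11.4% in fibroblasts. ECs held 36.8% of the UMIs of Igf1r and 34.0% of those of Igf2r. These shares pool both groups. The ECs of WT and ERG CKO held 4 and 184 Igf1 UMIs, and 143 and 1447 Igfbp5 UMIs.

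The ligand Igf1 had its highest levels in fibroblasts (mean over the 4 libraries 98.8 CPM, range 42.8 to 144) and macrophages (95.1 CPM, range 67.3 to 122), whose ranges overlapped. A gap separated both from the next class, ECs, at 14.2 CPM (range 0 to 32.4). Platelets, neutrophils, epithelial cells, monocytes, dendritic cells, mural cells and T cells followed with overlapping ranges. No Igf1 UMI was counted in 830 B cells, in NK cells or in mast cells or basophils. For B cells this allows up to 0.361% of cells with a UMI at this depth and sets no limit on cells that express it.

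Igf1 rose in ECs. The WT libraries held 4 and 0 Igf1 UMIs in ECs (1.44 and 0 CPM) and the ERG CKO libraries 99 and 85 (22.8 and 32.4 CPM). Both ERG CKO values lie above both WT values. The difference was 5.21 on the log2 scale (SE 0.60, adjusted p = 0.00670 by edgeR), with a WT level that rests on 4 UMIs. Igf1 passed the filter on low counts through the ERG CKO libraries alone, so a call in ECs could only be higher. At least 1 Igf1 UMI was seen in 3 of 618 WT 1 ECs (0.485%, Wilson 95% interval 0.165 to 1.42%), 0 of 693 WT 2 ECs (up to 0.433%), 42 of 709 ERG CKO 1 ECs (5.92%, 4.41 to 7.91%) and 22 of 502 ERG CKO 2 ECs (4.38%, 2.91 to 6.55%). After each cell was thinned to 1000 UMIs the shares were 0, 0, 1.57 and 1.84%. Median depth was 3966 to 5364 UMIs per EC and 3942 to 5075 per B cell, the class without any Igf1 UMI. Intervals and limits cover counting error. Without WT replicate 2 the call was lost (adjusted p = 0.0830). Without WT replicate 1 it was kept, with no Igf1 UMI left in WT ECs and so no fold.

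Of the 8 IGF genes tested in ECs, 2 were called higher (Igf1 and Igfbp5) and 0 lower, where 3.56% of all 10747 genes tested in ECs were called in either direction. Igf1 entered this count through the ERG CKO libraries alone. The median log2 fold change was 0.35 for the 8 genes and 0.01 for all genes. The subtypes of ECs differed in number between the groups, with 384 and 456 gCap ECs in WT against 233 and 175 in ERG CKO. Unnamed clusters held 142 and 124 cells in WT against 329 and 216 in ERG CKO. The unnamed counts include a cluster of 69 cells with platelet markers, which was left out of the EC class. The part of these numbers in the level over all ECs was not tested, and values within subtypes follow.

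**Figure D1:**
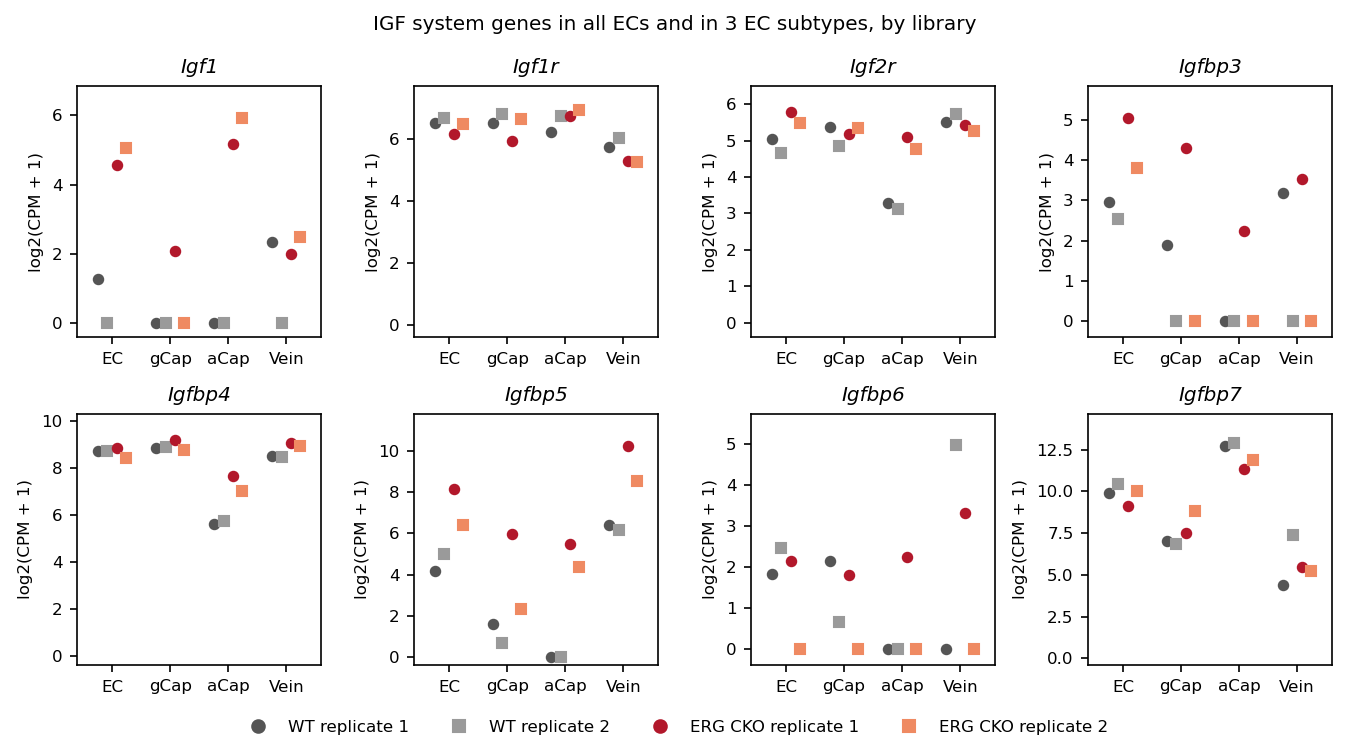
Level of each IGF system gene as log2(CPM + 1) in all ECs and in gCap, aCap and vein ECs, with a point for each of the 2 WT (grey) and 2 ERG CKO (red, orange) libraries. In aCap ECs the ERG CKO points lie above the WT points for Igf1, Igf2r, Igfbp4 and Igfbp5 and below them for Igfbp7.

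Of the 184 Igf1 UMIs in ECs of the ERG CKO libraries, 46 lay in aCap ECs and 106 in an unnamed cluster. In aCap ECs no Igf1 UMI was found in 44 and 69 WT cells, against 19 and 27 UMIs in 76 and 67 ERG CKO cells (35.2 and 59.7 CPM), in 8 of 76 (10.5%, Wilson 95% interval 5.43 to 19.4%) and 5 of 67 cells (7.46%, 3.23 to 16.3%). Against the floor of 3 counts over the WT group the pooled ERG CKO level of 46.3 CPM was 13.3-fold higher. That ratio leaves out the counting error of the ERG CKO UMIs and was not tested. The separate edgeR test called Igf1 higher (adjusted p = 0.000308). With no UMI in WT, Igf1 passed the filter on low counts through the ERG CKO libraries alone, so a call could only be higher. The call was lost without WT replicate 2 (adjusted p = 0.0734). These cells came from 2 clusters that the groups filled unequally, cluster 7 with 15, 24, 57 and 38 cells and cluster 8 with 29, 45, 19 and 29 cells for WT 1, WT 2, ERG CKO 1 and ERG CKO 2. Within cluster 7 the Igf1 level was 0, 0, 39.4 and 60.1 CPM in that order of libraries. Within cluster 8 it was 0, 0, 18.3 and 58.9 CPM. The aCap EC with the most Igf1 held 5 of the 19 UMIs in ERG CKO 1 and 10 of the 27 in ERG CKO 2. gCap ECs had 4 Igf1 UMIs in ERG CKO replicate 1 and 0 in the other libraries, and Igf1 was not tested there.

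Outside the 23 lymphatic ECs, Igf1 was highest in cluster 6, led by F8, Col13a1, Igfbp3, Gja1 and Apln and left unnamed. It held 3 and 8 WT cells against 89 and 56 ERG CKO cells. Igf1 was at 94.6 and 170 CPM in the ERG CKO libraries, with a UMI in 25.8% (17.9 to 35.8%) and 21.4% (12.7 to 33.8%) of the cells. The 11 WT cells held none, which allows a level of up to 71.6 CPM, so the level in WT cells of this kind was not measurable at this depth. Of the 64 Igf1-positive ECs of the ERG CKO libraries, 35 were in cluster 6, 13 were aCap ECs and 16 were other ECs.

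**Figure D2:**
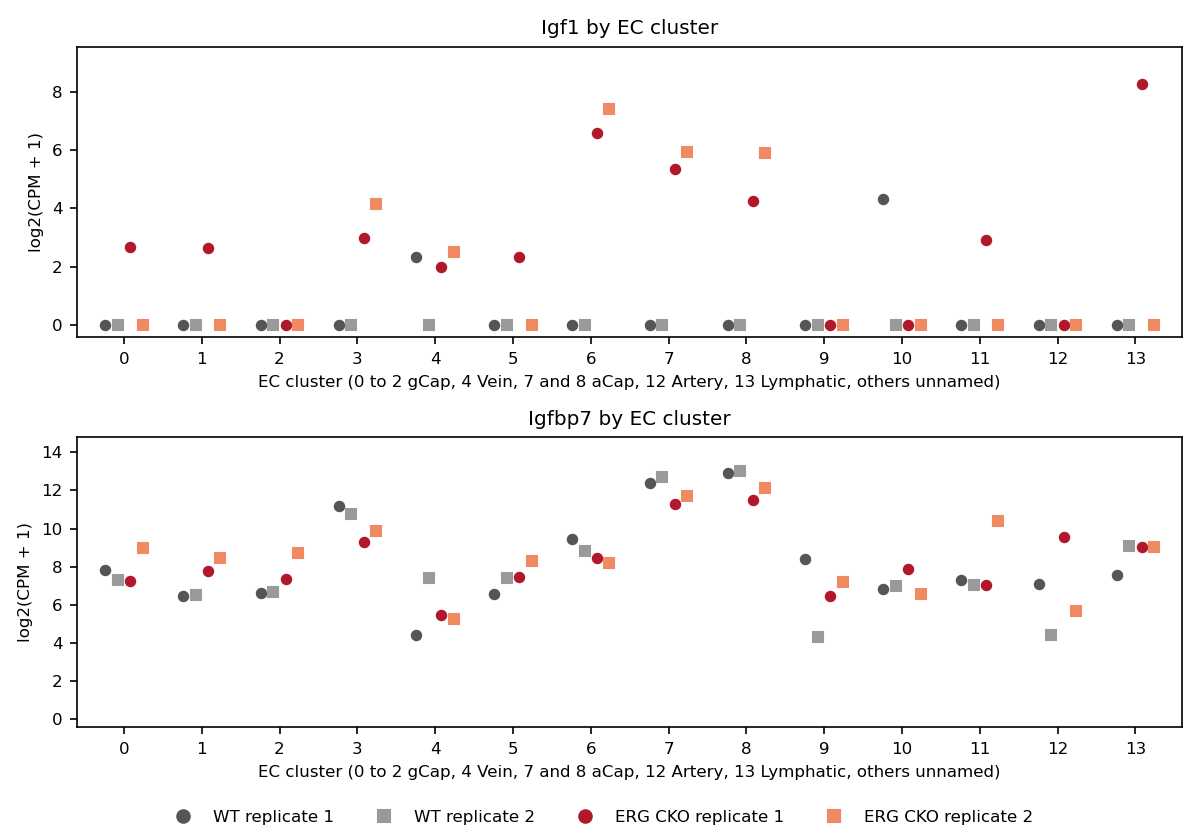
Igf1 (upper panel) and Igfbp7 (lower panel) as log2(CPM + 1) in the 14 EC clusters, numbered 0 to 13, with a point per library. Igf1 points of ERG CKO libraries stand highest in clusters 6, 7, 8 and in replicate 1 of cluster 13, and Igfbp7 is lower in both ERG CKO libraries in clusters 3, 6, 7 and 8.

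Summed levels of markers of macrophages and fibroblasts, the other Igf1 sources, were higher in Igf1-positive than in Igf1-negative ECs of ERG CKO. Of 12 macrophage markers 10 had a UMI in the 64 Igf1-positive ECs of ERG CKO, with Marco and Plet1 at 0, and their summed level was 419 and 174 CPM against 128 and 126 CPM in the Igf1-negative ECs of the same 2 libraries. Macrophages themselves had 20046 to 24028 CPM of these markers. Fibroblast markers stood at 150 CPM in the positive ECs and 40.2 CPM in the negative ones, with 7 of 8 detected and Lum at 0. Every positive cell had EC markers and none was called a doublet. A UMI of the complement genes C1qa, C1qb or C1qc was found in 7 of the 64, which held 17 of the 184 Igf1 UMIs. Of the 176 macrophage marker UMIs in the positive ECs, 106 were of these complement genes, and 1 cell held 46 of them. Among ECs with no UMI of any macrophage or fibroblast marker, a set chosen after the data were seen, Igf1 was at 0 and 0 CPM in WT and at 17.1 and 37.5 CPM in ERG CKO. In aCap ECs of that set it was at 0 and 0 CPM against 36.5 and 72.5 CPM.

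In macrophages Igf1 was at 80.6 and 67.3 CPM in WT and 111 and 122 CPM in ERG CKO, with no overlap. The log2 fold change of 0.65 (SE 0.14) did not pass after adjustment (adjusted p = 0.396, edgeR). Alveolar macrophages, which made up 543 of the 700 cells, had 74.9 and 59.3 against 106 and 115 CPM. Interstitial macrophages (78 cells: 13, 7, 39 and 19 in WT 1, WT 2, ERG CKO 1 and ERG CKO 2) had higher levels in every library. They stood at 246 and 359 CPM in WT against 221 and 227 CPM in ERG CKO, where the order of the groups is the other way round. The part of these cell numbers in the macrophage level was not tested.

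Fibroblasts had 89.2 and 42.8 CPM of Igf1 in WT and 144 and 119 CPM in ERG CKO (log2 fold change 0.93, SE 0.34, adjusted p = 0.813, edgeR). The values do not overlap, and the ERG CKO 2 value rests on 17 UMIs of 19 cells. Alveolar fibroblasts had 45.7 and 15.4 against 90.9 and 111 CPM. Adventitial fibroblasts had 317 and 114 against 367 and 229 CPM, which overlap.

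Over the 10 other named classes in which a member could be tested, 35 member tests gave 0 calls with edgeR and 0 with DESeq2, and 9 had an unadjusted p under 0.05. Background call rates over all genes were 0.0476% in fibroblasts, 0.0776% in mural cells, 0% in epithelial cells, 0.0212% in macrophages, 0.0126% in monocytes, 0% in neutrophils, 0.197% in dendritic cells, 0.0937% in T cells, 0.0950% in NK cells and 0.0612% in platelets. B cells, with 0.130% of genes called, had no member past the filter on low counts, and mast cells or basophils had too few cells for a test.

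The receptor Igf1r was highest in neutrophils (mean 435 CPM, range 299 to 672) and in mast cells or basophils (367 CPM, range 242 to 506, from 3 libraries), which overlapped and stood apart from all other classes. Mural cells (122 CPM), fibroblasts (117 CPM), ECs (87.1 CPM), platelets (64.4 CPM), epithelial cells (61.2 CPM) and T cells (43.4 CPM) followed, each overlapping its neighbour. Monocytes (25.9 CPM) and dendritic cells (21.2 CPM) lay above macrophages (6.31 CPM), B cells (3.42 CPM) and NK cells, in which 1 UMI was counted. In ECs Igf1r stood at 89.2 and 101 CPM in WT and 69.8 and 88.5 CPM in ERG CKO (log2 fold change -0.31, SE 0.15, adjusted p = 0.361, edgeR). In neutrophils it was at 672 and 299 against 367 and 401 CPM (log2 fold change -0.27, SE 0.38, adjusted p = 0.989).

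In T cells the Igf1r levels of the groups did not overlap. WT libraries had 58.0 and 51.8 CPM (138 and 96 UMIs) and ERG CKO libraries 31.0 and 32.7 CPM (78 and 47 UMIs). The log2 fold change of -0.77 (SE 0.17) was not called after adjustment over 8538 genes (adjusted p = 0.228, edgeR). The separation lay in cluster 12, whose 320 cells were led by Cxcr6, Icos, Areg, Ctla4 and Il1rl1, with 138 and 139 CPM in WT against 55.7 and 59.0 CPM in ERG CKO. In cluster 4, 555 cells led by genes that include Lef1, Cd4 and Ccr7, the level was 43.2 and 19.1 against 26.3 and 28.0 CPM. In cluster 8, 447 cells led by genes that include Cd8b1, Cd8a and Ccr7, it was 26.1 and 24.8 against 26.0 and 19.7 CPM. The clusters were not tested one by one. A further cluster of 329 cells with 8 of 9 T cell markers, led by Ccl5, Gzmk and Cd8b1, is not in the T class. The naming rules left it unnamed.

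**Figure D3:**
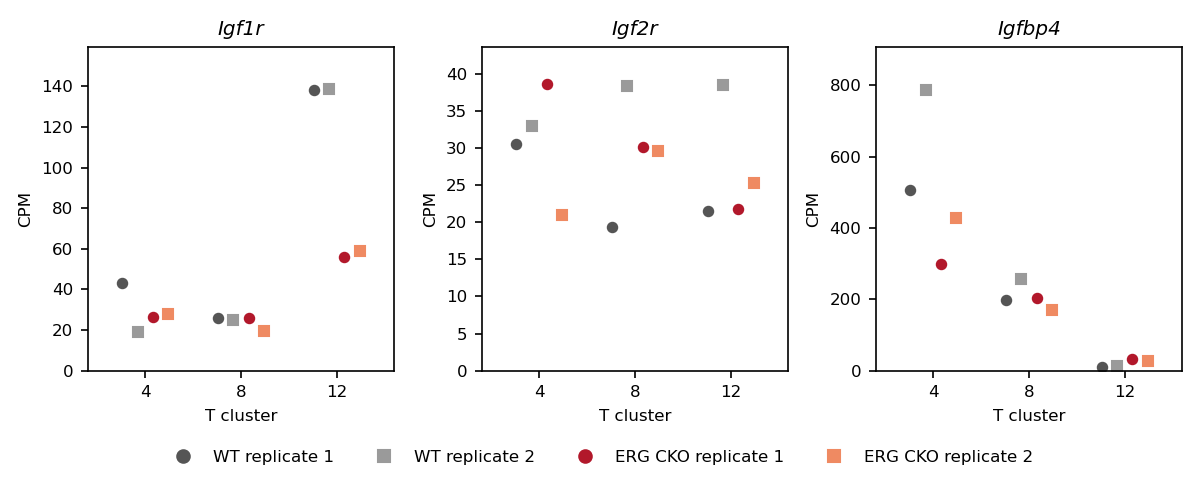
Levels in CPM of Igf1r, Igf2r and Igfbp4 in the 3 named T cell clusters (4, 8 and 12), with a point per library. Igf1r of cluster 12 is near 139 CPM in both WT libraries and under 60 CPM in both ERG CKO libraries, and Igfbp4 is lowest in cluster 12.

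The receptor Igf2r was highest in mural cells (mean 154 CPM, range 81.6 to 332), the top value resting on 8 UMIs of 10 cells. Fibroblasts (58.7 CPM), epithelial cells (47.9 CPM), NK cells (45.7 CPM), ECs (38.6 CPM), T cells (29.5 CPM) and platelets (24.7 CPM) overlapped their neighbours in turn, and macrophages were lowest at 1.16 CPM. The matrix also counts Airn, a long RNA transcribed from the opposite strand across Igf2r. Whether the counting used the strand is not given in the sources used here, so reads of these 2 genes may not be told apart.

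Igf2r was called higher in aCap ECs, at 8.80 and 7.71 CPM in WT and 33.3 and 26.5 CPM in ERG CKO (log2 fold change 1.86, SE 0.54, adjusted p = 0.0381, edgeR). The counts were small, with 3 and 4 UMIs against 18 and 12. Igf2r passed the filter on low counts through the ERG CKO libraries alone, so a call could only be higher. The call was lost whichever library was left out (adjusted p = 0.156 and 0.364 for WT 1 and WT 2, 0.396 and 0.105 for ERG CKO 1 and ERG CKO 2) and with DESeq2 (adjusted p = 0.470). Over all ECs Igf2r stood at 32.0 and 24.5 against 53.9 and 43.9 CPM, without overlap (log2 fold change 0.77, SE 0.20, adjusted p = 0.0832 by edgeR). Without ERG CKO replicate 2 the log2 fold change was 0.92. gCap ECs had 40.6 and 27.7 against 35.2 and 39.6 CPM. Monocytes (7.50 and 5.02 against 21.2 and 13.003 CPM, adjusted p = 0.460) and NK cells (38.6 and 34.8 against 55.7 and 53.7 CPM, adjusted p = 0.943) separated without a call, while T cells overlapped (23.5 and 36.7 against 32.6 and 25.1 CPM).

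Igfbp3, the main IGF carrier of blood plasma, was a fibroblast gene in these lungs, at 525 CPM on average (range 427 to 641), apart from mural cells (29.5 CPM) and ECs (14.2 CPM). Fibroblasts held 69.9% of its UMIs. Adventitial fibroblasts had 569 and 927 CPM in WT and 1516 and 1486 CPM in ERG CKO, from 16, 10, 11 and 3 cells, whereas alveolar fibroblasts overlapped at 663 and 328 against 220 and 471 CPM. In ECs Igfbp3 was at 6.83 and 4.84 CPM in WT and 32.2 and 12.97 CPM in ERG CKO (log2 fold change 1.98, SE 0.47, adjusted p = 0.0660, edgeR). DESeq2 called it (adjusted p = 0.0149), and without ERG CKO replicate 2 the log2 fold change was 2.45 by edgeR. Cluster 6, which has Igfbp3 among its leading genes although the IGF genes took no part in the clustering, held 106 of the 140 and 30 of the 34 Igfbp3 UMIs in ECs of the ERG CKO libraries, and all 15 of WT replicate 2.

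Igfbp4 was shared by fibroblasts (477 CPM, range 287 to 635), ECs (405 CPM, 343 to 453), T cells (269 CPM, 219 to 360), platelets (242 CPM, 217 to 265) and mural cells (188 CPM, 41.5 to 270), each overlapping the next. Over all ECs the groups overlapped, with 411 and 412 CPM in WT and 453 and 343 CPM in ERG CKO (log2 fold change -0.08, SE 0.16, adjusted p = 0.883, edgeR). aCap ECs had the lowest WT level of the 3 tested subtypes and gained Igfbp4, from 47.0 and 52.0 CPM (16 and 27 UMIs) to 196 and 126 CPM (106 and 57 UMIs). On the log2 scale this was 1.70 (SE 0.28, adjusted p = 0.000782), and the call was lost without WT replicate 2 (adjusted p = 0.101). Both aCap clusters showed it, cluster 7 with 87.3 and 92.4 against 181 and 152 CPM and cluster 8 with 19.7 and 25.5 against 256 and 82.4 CPM. gCap ECs stood at 458 and 467 against 578 and 435 CPM, and artery ECs, 39 cells in all, at 1851 and 2256 against 1108 and 477 CPM.

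Among T cells Igfbp4 was at 256 and 360 CPM in WT and 219 and 238 CPM in ERG CKO (log2 fold change -0.42, SE 0.18, adjusted p = 0.845 by edgeR). Without WT replicate 1 the log2 fold change was -0.66. Igfbp4 was concentrated in clusters 4 (508 and 786 against 299 and 428 CPM) and 8 (197 and 257 against 204 and 171 CPM). In cluster 12 it was at 10.8 and 12.8 against 33.9 and 28.1 CPM, so the groups stood in the other order there. Epithelial cells had 34.0 and 44.5 against 107 and 67.6 CPM (log2 fold change 0.83, SE 0.30, adjusted p = 0.575).

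Igfbp5 rose in ECs, from 16.9 and 30.9 CPM in WT (47 and 96 UMIs) to 282 and 85.5 CPM in ERG CKO. This was a log2 fold change of 2.92 (SE 0.54, adjusted p = 0.0302 by edgeR). The ERG CKO libraries differed more from each other than the WT libraries did, and the highest cell held 234 UMIs. The call was lost without WT replicate 1 (adjusted p = 0.244) or WT replicate 2 (adjusted p = 0.198), and the log2 fold change was 1.76 without ERG CKO replicate 1. Under the 12 alternatives that kept all libraries, leaving out the cell highest for each gene among them, the adjusted p was at most 0.0433. Vein ECs held 806 of the 1223 and 81 of the 224 UMIs of the ERG CKO libraries, with 84.9 and 70.1 CPM in WT against 1208 and 376 CPM in ERG CKO (log2 fold change 3.33, SE 0.50, adjusted p = 0.0337). There the log2 fold change was 2.14 without ERG CKO replicate 1, and DESeq2 did not call it (adjusted p = 0.105). aCap ECs had 0 and 0 against 44.4 and 19.9 CPM, a pooled level of 33.2 CPM that was at least 9.52-fold above the floor of 3 counts over the WT group, and Igfbp5 was not tested there because of the filter on low counts.

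The small classes of large-vessel ECs carried high Igfbp5 levels too. Artery ECs had 135 and 322 against 397 and 1306 CPM, and lymphatic ECs, 23 cells, had 460 and 3006 against 6781 and 1456 CPM, where the groups overlap. Outside ECs, Igfbp5 was found in fibroblasts (72.0 and 375 against 124 and 28.0 CPM) and epithelial cells (87.4 and 142 against 231 and 48.3 CPM), both overlapping, and within fibroblasts in adventitial rather than alveolar cells (411 and 1484 against 685 and 229 CPM, and 1.99 and 5.12 against 11.02 and 0 CPM).

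Igfbp6, which prefers IGF2 as a ligand, was highest in fibroblasts (mean 357 CPM, range 105 to 678) and epithelial cells (110 CPM, range 65.6 to 158), which overlapped, and ECs held 3.37% of its UMIs. Fibroblasts had 319 and 678 CPM in WT and 325 and 105 CPM in ERG CKO (log2 fold change -1.06, SE 0.45, adjusted p = 0.862, edgeR). Without WT replicate 1 the log2 fold change was -1.54. ECs had 2.52 and 4.51 against 3.45 and 0 CPM.

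Igfbp7 was highest in fibroblasts (mean 1904 CPM, range 1611 to 2443), which stood apart from ECs (994 CPM, range 564 to 1397), epithelial cells (500 CPM, 165 to 782) and mural cells (492 CPM, 304 to 636). Platelets (174 CPM), mast cells or basophils (130 CPM) and neutrophils (73.1 CPM, range 0 to 143) came next. B cells, T cells, macrophages, monocytes and dendritic cells lay between 5.41 and 6.86 CPM on average with overlapping ranges. Over all ECs the level was 970 and 1397 CPM in WT and 564 and 1043 CPM in ERG CKO (log2 fold change -0.60, SE 0.28, adjusted p = 0.336 by edgeR). Without ERG CKO replicate 2, which leaves a single mouse in that group, the log2 fold change was -1.09. The share of ECs with an Igfbp7 UMI went the other way, at 29.8 and 32.3% of WT cells against 41.7 and 48.6% of ERG CKO cells, or 17.0, 18.9, 22.3 and 33.5% after thinning. No direction is read for ECs as a whole from values that oppose each other.

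The subtypes separated these. aCap ECs had the highest Igfbp7 level of the EC subtypes, 6797 and 7648 CPM in WT, and it fell to 2596 and 3767 CPM in ERG CKO (log2 fold change -1.18, SE 0.19, adjusted p = 0.000564, edgeR). The call was lost without WT replicate 2 (adjusted p = 0.0841). Cluster 7 went from 5362 and 6715 to 2529 and 3374 CPM, and cluster 8 from 7767 and 8261 to 2858 and 4422 CPM. In gCap ECs Igfbp7 was low, at 129 and 114 CPM in WT and 178 and 452 CPM in ERG CKO (log2 fold change 1.33, SE 0.33, adjusted p = 0.212 by edgeR). The log2 fold change was 1.43 without WT replicate 1 and 1.85 without ERG CKO replicate 1, fits that leave a single mouse in a group. The gCap ECs came from clusters 0, 1 and 2, which the libraries filled unequally, with 121 of 384, 145 of 456, 78 of 233 and 108 of 175 cells in cluster 0 for WT 1, WT 2, ERG CKO 1 and ERG CKO 2. Cluster 0 held 450 of the 948 Igfbp7 UMIs of gCap ECs, and its groups overlapped at 225 and 160 against 153 and 507 CPM. Cluster 1 had 86.1 and 90.5 against 220 and 344 CPM and cluster 2 had 97.1 and 102 against 163 and 418 CPM, without overlap. The part of the cluster numbers in the gCap level, and in the differences between subtypes that use it, was not tested. Vein ECs had 20.2 and 168 against 43.5 and 37.1 CPM (log2 fold change -1.33, SE 0.63, adjusted p = 0.559), where 49 of the 55 UMIs of WT replicate 2 were in 1 cell. Without that library the log2 fold change was 0.95, and without WT replicate 1 it was -2.09.

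Of the 5 IGF genes tested in aCap ECs, 3 were called higher and 1 lower, where 10% of all 6524 genes tested in aCap ECs were called. Igf1 and Igf2r, among the higher calls, passed the filter on low counts through the ERG CKO libraries alone. Their calls could only be higher, and Igf1 had no UMI in WT aCap ECs. In gCap ECs 0 of 4 were called with 0.0547% of all genes called, and in vein ECs 1 of 5 with 0.123%. Of the 4 members tested in gCap ECs 1 had an unadjusted p under 0.05, and DESeq2 called 0 of them as well. A test of the difference between subtypes, added after the data were seen, asked whether the genotype effect itself differed. For Igfbp7 the log2 fold change in aCap ECs was lower than that in gCap ECs by -2.44 (SE 0.23, adjusted p = 4.2e-05, edgeR), in a comparison where 5.49% of genes were called. For Igfbp4 the aCap effect was higher than the gCap effect by 1.56 (SE 0.25, adjusted p = 0.00175) and than the vein effect by 1.29 (SE 0.34, adjusted p = 0.0137), the latter with 5.48% of genes called. For Igfbp7 the gCap effect was higher than the vein effect by 2.37 (SE 0.39, adjusted p = 6.7e-06, with 1.27% of genes called), a value that includes the vein cell with 49 UMIs. Igf2r differed by 1.70 between aCap and gCap ECs without a call (SE 0.57, adjusted p = 0.120). For Igf1 the aCap and gCap difference could not be fitted.

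Outside ECs Igfbp7 did not pass the test in any class. Epithelial cells had 386 and 165 against 665 and 782 CPM (log2 fold change 1.07, SE 0.40, adjusted p = 0.579, edgeR). Without WT replicate 1 the log2 fold change was 1.76. This class joins clusters led by Scgb1a1, Sftpc and Ccdc153. Its summed markers stood at 276836 and 297037 CPM in WT against 123527 and 179359 CPM in ERG CKO. The part of cell make-up in the epithelial levels of Igfbp7 and Igfbp4 was not tested. Mural cells had 304 and 489 against 636 and 539 CPM (adjusted p = 0.915), and fibroblasts 1611 and 1884 against 2443 and 1678 CPM (adjusted p = 0.943).

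Igfbp7 RNA was also counted in immune cells. The T, B, NK, monocyte, macrophage, neutrophil and dendritic classes, 4372 cells or 46.7% of all cells, held 274 Igfbp7 UMIs, 1.49% of the total. Mast cells or basophils are not in this tally. Their mean Igfbp7 level was 130 CPM (range 84.4 to 194). At least 1 UMI was found in 140 of these cells (3.202%), and 117 of the 140 had exactly 1. The 8 cells with 5 or more UMIs held 119 of the 274 and were all in ERG CKO libraries. By class and library, T cells had a UMI in 1.83, 4.32, 2.55 and 2.18% of cells, B cells in 1.72, 1.91, 1.59 and 1.54%, and NK cells in 0, 0, 1.28 and 1.77%, in the order WT 1, WT 2, ERG CKO 1 and ERG CKO 2. The median depth of these classes was 3942 to 6374.5 UMIs per cell, and after thinning to 1000 UMIs every share was at most 1.81%.

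In lymphocytes (T, B and NK cells summed) Igfbp7 was at 3.03 and 6.06 CPM in WT (11 and 19 UMIs) and 8.62 and 5.11 CPM in ERG CKO (37 and 15 UMIs), which overlap. This gave 0.65 on the log2 scale (SE 0.44, adjusted p = 0.999 by edgeR), where 0.0206% of genes were called, and 0.39 without the highest cell of each class and library. As a share of the level over all cells of the same library these values were 0.987, 1.498, 3.25 and 1.61%. Genes of structural cells, fixed by name, are given the same way. A set of 6 EC genes (Cldn5, Cdh5, Ramp2, Egfl7, Tmem100, Calcrl) stood at 3.59, 4.38, 3.75 and 4.59%, 4 fibroblast genes (Mgp, Gsn, Dcn, Inmt) at 2.44, 2.55, 5.07 and 5.15% and 4 epithelial genes (Sftpc, Sftpb, Sftpa1, Scgb1a1) at 0.871, 0.542, 2.36 and 1.02%. These shares were higher in both ERG CKO libraries than in both WT libraries for Igfbp7 and for the fibroblast and epithelial sets. They overlapped for the EC set. For Igfbp7 the ERG CKO 2 share rests on 15 UMIs, 5 of them in a B cell called a doublet. In T cells alone the Igfbp7 shares overlapped, at 1.09, 1.74, 3.30 and 1.32%. The level over all cells itself differed for the epithelial set, at 20227 and 17925 CPM in WT and 4790 and 4852 CPM in ERG CKO. The part of free RNA in the lymphocyte counts was not tested.

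**Figure D4:**
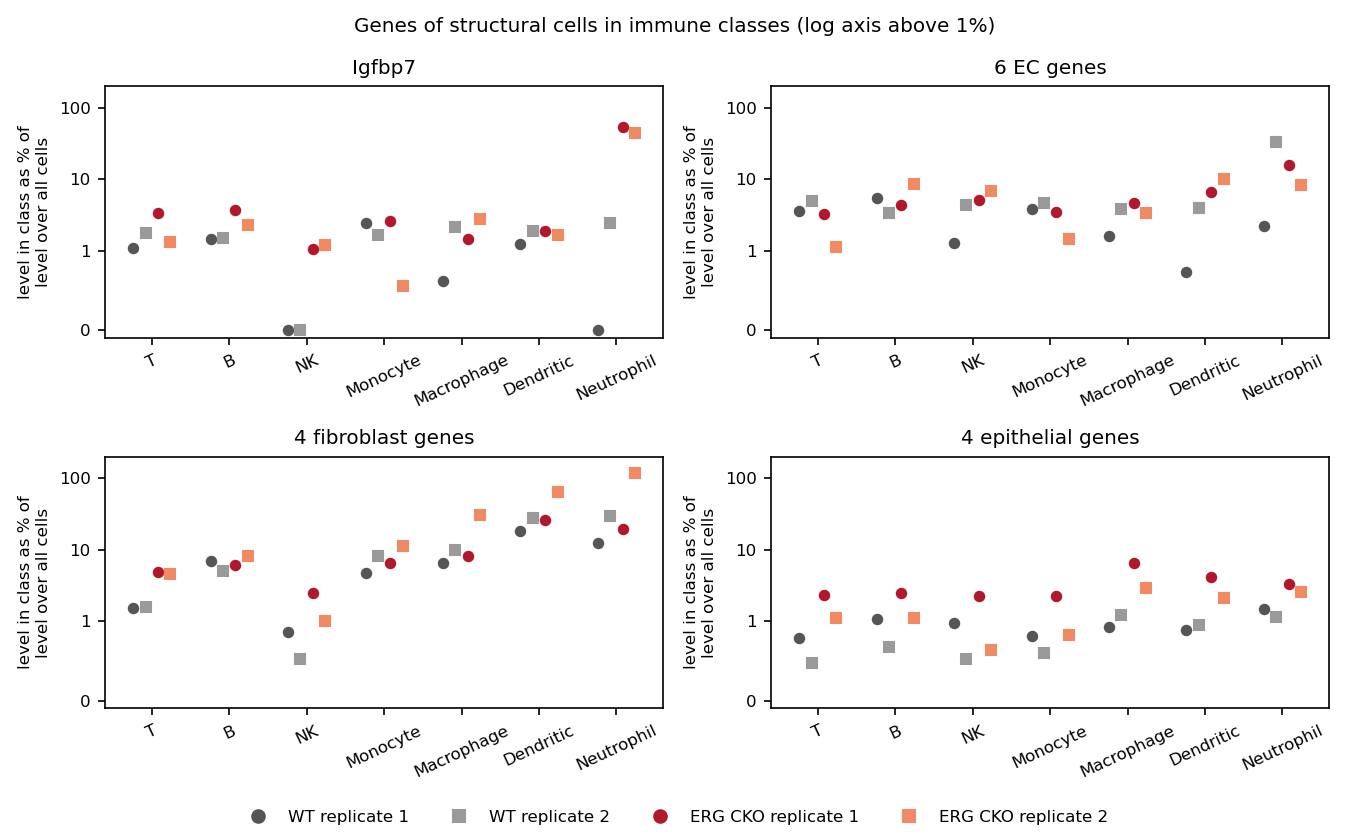
Level in 7 immune classes as a percent of the level over all cells of the same library, on an axis that is linear up to 1% and logarithmic above, for Igfbp7 and for sets of 6 EC, 4 fibroblast and 4 epithelial genes, with a point per library. Igfbp7 lies between 0 and 4% in every class except neutrophils of the ERG CKO libraries, at 53.8 and 44.3%.

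Neutrophils stood out, with 0 and 9.81 CPM in WT (0 and 2 UMIs) and 143 and 140 CPM in ERG CKO (52 and 43 UMIs). The log2 fold change was 4.48 (SE 0.66), without a call over 2945 genes (adjusted p = 0.825, edgeR). Igfbp7 passed the filter on low counts through the ERG CKO libraries alone, so a call could only be higher. The log2 fold change was 4.41 when ERG CKO 1 was dropped and 4.52 when ERG CKO 2 was dropped. Each of these fits keeps a single ERG CKO mouse, whose Igfbp7 UMIs were mostly in 1 cell. The UMIs lay in 4 cells of each ERG CKO library. The top cells held 43 and 34 Igfbp7 UMIs and carried 49 and 108 UMIs of EC markers and 44 and 44 of aCap markers beside 328 and 494 of neutrophil markers, and the second was called a doublet. Without the top cell of each library the levels were 0, 5.15, 25.3 and 30.3 CPM. Of the 8 cells with 5 or more Igfbp7 UMIs in the tallied immune classes, 4 were called doublets.

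Among 33 other genes of the IGF pathway, 32 were in the matrix and Igfbpl1 was not found. Of the 25 tested in ECs, where 3.56% of all genes were called, 0 were called higher and 1 lower. This was Grb14, an adaptor protein that inhibits insulin receptor signalling, at 44.2 and 43.5 CPM in WT and 10.1 and 16.4 CPM in ERG CKO (log2 fold change -1.81, SE 0.23, adjusted p = 0.00923, edgeR). The call was lost without WT replicate 1 (adjusted p = 0.0899) or WT replicate 2 (adjusted p = 0.125). The median log2 fold change of the 25 genes was 0.01, the same as for all genes. The fall lay in aCap ECs, where Grb14 went from 200 and 193 CPM to 18.5 and 22.1 CPM (log2 fold change -3.26, SE 0.28, adjusted p = 3.6e-06), beside 23.7 and 13.8 against 18.0 and 34.3 CPM in gCap ECs. The insulin receptor substrates, the Akt kinases, the Foxo factors and the Tsc, Mtor and Rheb genes that were tested gave no call in ECs, and no other class gave a call for a pathway gene.

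The genes whose mean levels over the 13 classes were most like each member were found by Pearson correlation on log2(CPM + 10), over 7091 genes. The classes share libraries and depth, and no test was made. Igf1 was closest to Adarb1 (0.96), Mical3 (0.94) and Kazald1 (0.92), and Igf1r to Flot1 (0.90), Isg15 (0.89) and Csf1 (0.88). Igf2r was closest to Utrn (0.95), Camk2n1 (0.94) and the overlapping Airn (0.94). Among the binding proteins, Igfbp3 followed Col18a1 and Srpx (0.99 each) and Gas1 (0.98), Igfbp4 followed Auts2 (0.94), Hdgfrp3 (0.93) and Plcg1 (0.93), and Igfbp5 followed Fbln5 (0.95), Itga9 (0.95) and Map1b (0.92). Igfbp6 followed Mme (0.97), 1810010H24Rik (0.97) and Ces1d (0.96), and Igfbp7 followed Epn2 (0.98), Nfib (0.94) and Fgfr3 (0.93).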

How the data were processed

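The authors made droplet single-cell RNA-seq libraries from dissociated whole lungs of 2 WT and 2 ERG CKO mice. The submitters' processing notes name Cell Ranger 3.1.0 and the mouse build mm10. The matrix was deposited as UMI counts per gene and cell, without normalization, and filters on cells or genes before deposit and the use of strand in counting are not given in the sources used here. The study's text states fewer cells after a quality filter that it does not describe, so all 9363 cells with at least 200 genes were kept here. The series design text and the study's methods name different dissociation reagents.

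Repeated symbols (13 of 20076 rows) were summed. Libraries were aligned by CCA in Seurat 5.3.0 (R 4.3.3) on 2000 variable genes and 30 dimensions and clustered at a resolution of 0.8, and ECs again at 1, with 47 genes (IGF members, pathway genes, Erg and sex-linked genes) not eligible as variable genes. Names were given to clusters from marker lists, by rules whose thresholds were set after the clusters were seen, among them the limits for a second class and for subtypes and the EC resolution. Subclusters with markers of another lineage (233 cells) were left out of their class and 1366 cells stayed unnamed. Scrublet (scanpy 1.11.5) called 58 doublets (0.619%), which were kept. Names rebuilt this way may differ from the study's.

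Counts were summed per class and library and tested with edgeR 4.0.16 (TMM, filterByExpr, quasi-likelihood F test of genotype) where every library had at least 10 cells, adjusted over all genes of a class. Calls are at an adjusted p of at most 0.05. Alternatives were RLE scaling, DESeq2 1.42.0, no filter, a replicate block, doublets or cells over 10% mitochondrial counts left out, other resolutions, no CCA and each library left out. The tests between EC subtypes were added after the data were seen. The members and all lists were chosen with earlier results of these data known. All 8 members are named throughout, other pathway genes where called (1 result is not reported here), and for each member the 3 genes with the highest Pearson correlation over classes among those with a class mean of at least 50 CPM. Shares of cells carry Wilson 95% intervals, and a count of 0 allows 3 counts. Scripts were tested on simulated data.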

Additional observations from a re-analysis of the deposited data

Results flagged for a closer look

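The effect of genotype differed between EC subtypes for 2 binding proteins by a test of the difference itself (edgeR, log2 fold change of the first subtype minus that of the second). For Igfbp7 the difference was -2.44 between aCap and gCap ECs (adjusted p = 4.2e-05) and 2.37 between gCap and vein ECs (adjusted p = 6.7e-06), the latter with 1 vein cell of WT replicate 2 holding 49 UMIs. For Igfbp4 it was 1.56 between aCap and gCap ECs (adjusted p = 0.00175) and 1.29 between aCap and vein ECs (adjusted p = 0.0137).

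Other differences were noticed because every library of a class lay on one side of WT and every library of the other class on the opposite side, and they were not tested. Igfbp4 was higher in both ERG CKO libraries in epithelial cells and platelets and lower in both in monocytes and T cells. The log2 fold changes differed by 1.38 between epithelial cells and monocytes, by 1.25 between epithelial cells and T cells, by 0.74 between platelets and monocytes and by 0.61 between platelets and T cells. Igf1 in interstitial macrophages, with 13 and 7 cells in the WT libraries, differed by -78.8 CPM (ERG CKO minus WT). In alveolar macrophages both ERG CKO libraries lay above WT, and this too was not tested.

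Cells outside the named classes carried some members at higher levels in both ERG CKO libraries than in both WT libraries. In the 1366 unnamed cells the mean ERG CKO level was 16.6 CPM for Igf1, 36.9 CPM for Igf2r, 8.02 CPM for Igfbp3, 157 CPM for Igfbp4 and 24.7 CPM for Igfbp5. The Igfbp5 value rests on ERG CKO replicate 1 (73 UMIs, against 4 in replicate 2). In the 233 cells with markers of another lineage the mean ERG CKO level was 31.0 CPM for Igf1, 469.9 CPM for Igfbp4 and 671 CPM for Igfbp7, from 126 and 10 cells.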

How the results depend on the processing

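Across the 8 members, the 2 calls in ECs became 5 without the filter on low counts. Over all genes in ECs the calls went from 383 of 10747 to 1161 of 16971. The 5 calls in EC subtypes became 3 with DESeq2 and 10 without the filter. Over all genes in aCap ECs the calls went from 654 of 6524 to 319 of 6524 with DESeq2 and to 831 of 13450 without the filter. The 0 calls in the other named classes became 6 without the filter, where calls over all genes rose in every class, and the 1 pathway call in ECs became 4. These counts also moved with 1 library left out, which leaves a single mouse in a group. The log2 fold change of Igfbp7 in lymphocytes (0.65) ranged from 0.14 to 1.26 with 1 library left out and was never called. Igf1 and Igfbp5 in ECs and Igfbp7, Igf1 and Igfbp4 in aCap ECs were called under all 12 alternatives that kept every library, Igf2r in aCap ECs under 10 and Igfbp5 in vein ECs under 9 of them. The cause of the lost calls was not tested.

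The replicate numbers of the titles were tried as a block. Same-numbered libraries deviated together with a correlation of 0.32 in ECs, 0.14 in T cells and 0.15 in B cells, but with 2 pairs the numbers do not establish a pairing. With the replicate block edgeR called 5 members and 3 pathway genes in ECs, where 1153 of all 10747 genes were called. The block added Igfbp7 (adjusted p = 0.00208), Igfbp3 (adjusted p = 0.000883) and Igf2r (adjusted p = 0.00452) there. The 2 calls in the other named classes were Igf1r (adjusted p = 0.00214) and Igfbp4 (adjusted p = 0.0157) in T cells, where 160 of 8538 genes were called. In gCap ECs, where 279 of 9146 genes were called, the block added Igfbp7 (adjusted p = 5.0e-07). The log2 fold change of Igf1r in mural cells turned to 0.051.

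Log2 fold changes that changed sign were all uncalled. With resolution 1.2 they were -0.017 for Igf2r in fibroblasts, 0.039 for Igf2r in epithelial cells, 0.029 for Igfbp4 in fibroblasts and 0.37 for Igfbp4 in mural cells. Without CCA they were 0.064 for Igf2r in epithelial cells and 0.089 for Igfbp4 in mural cells. Igf2r in T cells was -0.022 with DESeq2 and -0.018 without the highest cell, which also turned Igfbp5 in epithelial cells to 0.18. Igfbp4 was 0.045 in fibroblasts with cells of another lineage kept, -0.18 in epithelial cells at resolution 0.4 and 0.065 in monocytes without doublets.

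With 1 library left out, Igf1r ranged from -0.47 to 0.11 in fibroblasts, -0.31 to 0.12 in mural cells and -0.78 to 0.43 in neutrophils. Igf2r ranged from -0.13 to 0.026 in epithelial cells, -0.49 to 0.48 in fibroblasts, -0.32 to 0.37 in T cells and -0.15 to 0.42 in gCap ECs, and Igfbp3 from -0.39 to 0.072 in fibroblasts. Igfbp4 ranged from -0.33 to 0.12 in ECs, -0.83 to 0.41 in fibroblasts, -0.46 to 1.12 in macrophages, -2.82 to 0.15 in mural cells and -0.14 to 0.34 in gCap ECs. Igfbp5 ranged from -1.46 to 0.57 in epithelial cells and -2.89 to 0.33 in fibroblasts, and Igfbp6 from -0.87 to 0.34 in epithelial cells. Igfbp7 ranged from -0.086 to 0.50 in fibroblasts, -0.47 to 1.70 in macrophages, -0.24 to 1.08 in T cells and -2.09 to 0.95 in vein ECs. A group with 1 library left is assumed to vary like the other.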
